A study of Homo sapiens with 14 samples.

Results

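ZIC1, ZIC2, ZIC4, ZIC5, OLIG3, HES3, SOX1, SOX3 and PAX6 are 9 genes of neural and early ectodermal transcription factors, taken by name from the 63677 genes counted in the bulk RNA-seq table. They were chosen by measured values: their levels in 12 bulk libraries, namely a fall from human embryonic stem cells (hESC) to hESC-derived endoderm and their levels in foregut cells, and their transcripts in SOX2-positive against PAX3-positive nuclei of gastruloids. Values in those comparisons are therefore descriptions. Where calls are given for them, they only set the genes beside all other genes and support nothing. The label of a fall to endoderm was met in part: the mean was lower in endoderm than in hESC for 6 of the 9 genes, higher for ZIC2 and PAX6, and 1.01 times that in hESC for ZIC5. Only 5 of the 9 (ZIC1, ZIC2, ZIC4, ZIC5 and SOX3) were among the 17493 genes listed for the nuclei.

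The study asked how primate-specific transposable elements act as gene regulatory sequences in models of human gastrulation. All cells came from H9, an established human embryonic stem cell line. The bulk libraries were hESC (n = 2), endoderm without sgRNA (n = 3), endoderm with sgRNA (n = 3), foregut control (n = 2) and foregut with sgRNA (n = 2). Gastruloids, aggregates of hESC that elongate along an axis, gave 1 library of nuclei in which RNA and open chromatin (ATAC) were read together. Endoderm was made with 100 ng/ml Activin A for 3 days, with the Wnt activator CHIR-99021 at 5 µM on the first day and 0.5 µM on the second. Endoderm libraries both with and without sgRNA carried dCas9-KRAB, a cutting-dead Cas9 fused to a repressor domain, so the sgRNA was what set them apart. The labels name no dCas9-KRAB for hESC. The sgRNA was designed on the consensus of LTR5B, a repeat derived from an endogenous retrovirus. Gastruloids were grown from 800 cells per well, treated with 3 µM CHIR-99021 and taken at 72 h. Foregut cells were harvested after 3 days of endodermal and then 3 days of foregut differentiation by a commercial pancreatic protocol. The foregut groups were taken from the sample titles because their other labels repeat those of hESC and endoderm. The study calls its RNA-seq replicates biologically independent, and the labels do not say at which step they were kept apart.

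ZIC proteins are zinc finger factors of the early neural plate and dorsal neural tube, and ZIC genes are also used in early mesoderm. SOX1 and SOX3 belong with SOX2 to the SOXB1 group, which keeps neural progenitors undifferentiated. OLIG3 and HES3 are basic helix-loop-helix factors, the first of the dorsal neural tube and the second a repressor of neuronal differentiation. PAX6 is a paired-box factor of forebrain, eye and spinal cord progenitors that is also used in pancreatic endocrine cells.

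The foregut libraries stood apart from the rest. Between 582 and 786 genes had 1 to 5 reads in the 4 foregut libraries against 4321 to 5138 in the other 8, although they held 20811663 to 37152434 gene reads against 11583063 to 23539769 in the others. The cause was not tested, and every low or zero foregut value below carries that limit. ZIC1, for example, had 0 and 29 reads in the foregut controls. Folds against a foregut count of 0 take it as 3 reads over the group and cannot be read as bounds. Markers followed the labels in part. SOX17, an endoderm factor, was at 0 counts per 1000000 gene reads (CPM) in hESC, at 241 ± 42.6 CPM (SD, n = 3) in endoderm and at 24.0 ± 2.71 CPM (n = 2) in foregut. PDX1, a factor of posterior foregut and pancreas, was at 25.7 ± 0.29 CPM (n = 2) in foregut control. The pluripotency factor POU5F1 was still at 734 ± 103 CPM in endoderm against 453 ± 236 CPM in hESC, and NANOG was at 26.6 ± 4.96 CPM there. TBXT, a marker of primitive streak, was at 24.1 ± 3.38 CPM in endoderm and 0.087 ± 0.003 CPM in hESC. Fewer cells of a type and less RNA per cell cannot be told apart in such bulk libraries.

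**Figure D1:**
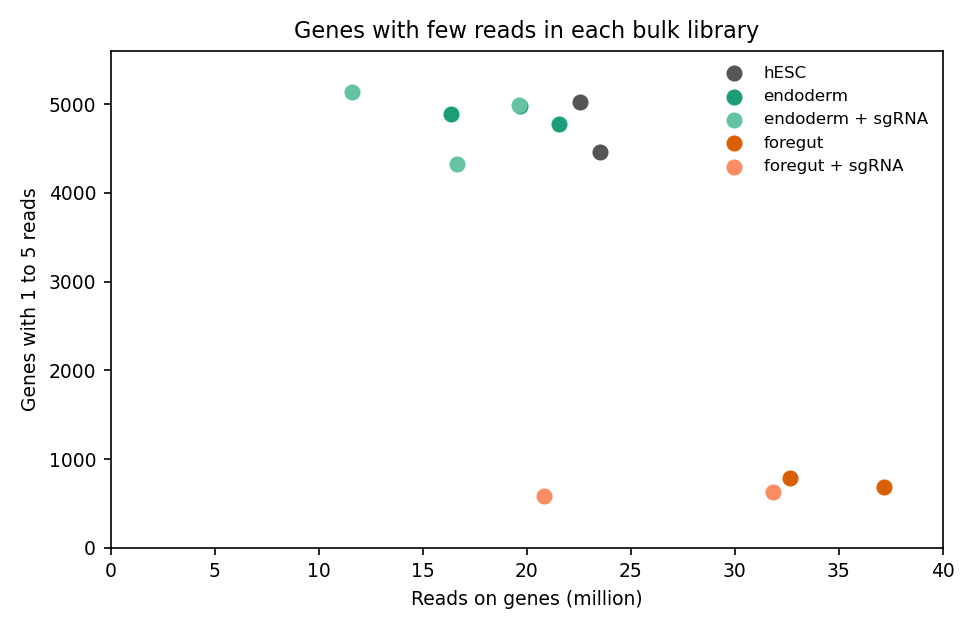
Genes with 1 to 5 reads (y axis, number of genes) against total gene reads (x axis) for each of the 12 bulk libraries, coloured by group. The 4 foregut libraries lie at 582 to 786 genes, far below the 4321 to 5138 of the other 8.

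The 9 genes lie at 7 places in the genome. On GRCh37, the build of the bulk table, ZIC1 (chr3:147111209-147228080, plus strand) and ZIC4 (chr3:147103833-147124596, minus strand) overlap on opposite strands, and ZIC5 (chr13:100615218-100624021, minus) lies beside ZIC2 (chr13:100634038-100639019, plus). In RefSeq annotation (GRCh38.p14) the starts of ZIC1 and ZIC4 are 2.82 kb apart and those of ZIC2 and ZIC5 9.88 kb apart, each pair transcribed in opposite directions. OLIG3 (chr6:137813336-137815531, minus), HES3 (chr1:6304239-6305638, plus), SOX1 (chr13:112721463-112726020, plus), SOX3 (chrX:139585150-139587234, minus) and PAX6 (chr11:31806327-31839509, minus) lie apart from the rest. The strand setting of the read counting is not given in the sources used here. Reads of ZIC1 and ZIC4 where they overlap, and of PAX6 and ELP4, which overlaps it on the other strand, can be told apart only if strand was used.

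Most of these genes had open chromatin at a start in the gastruloids. A window from 250 bases before to 50 bases after a RefSeq start overlapped 1 of the 205374 ATAC peaks for 6 of the 9 genes, which is near the 76.6% of the 15843 genes with such a window and so no mark of these genes. Those 6 were ZIC1, ZIC2, ZIC5 and SOX1, ZIC4 at 1 of its 4 starts and PAX6 at 4 of its 9. OLIG3, HES3 and SOX3 had none, and their nearest peaks began 576, 828 and 567 bases from the start. SOX1 and PAX6 thus had an open promoter although neither has a row in the RNA table. Peaks were called on the pooled nuclei, so they do not say in which nuclei a promoter was open.

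The 250 bases before the start are shown for ZIC1, SOX3, OLIG3 and HES3, because the last 3 are those without a peak and ZIC1 is an example with one. Sequences are from RefSeq, build GRCh38.p14, written 5′ to 3′ on the strand of the gene. Capitals mark CCAAT or its reverse ATTGG in ZIC1 (chr3:147409115-147409364, plus) and SOX3 (chrX:140505070-140505319, minus), and TATAAA in OLIG3 (chr6:137494395-137494644, minus) and HES3 (chr1:6243929-6244178, plus).
ZIC1: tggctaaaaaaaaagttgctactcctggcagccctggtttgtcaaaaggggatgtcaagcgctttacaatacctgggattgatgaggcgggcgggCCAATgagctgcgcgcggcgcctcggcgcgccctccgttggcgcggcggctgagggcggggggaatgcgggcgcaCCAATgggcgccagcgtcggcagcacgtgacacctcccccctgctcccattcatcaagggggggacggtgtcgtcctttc
SOX3: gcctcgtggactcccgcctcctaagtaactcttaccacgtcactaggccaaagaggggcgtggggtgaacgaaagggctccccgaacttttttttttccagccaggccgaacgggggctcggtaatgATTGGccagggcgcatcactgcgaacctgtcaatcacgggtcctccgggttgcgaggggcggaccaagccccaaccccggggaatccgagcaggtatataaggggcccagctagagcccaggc
OLIG3: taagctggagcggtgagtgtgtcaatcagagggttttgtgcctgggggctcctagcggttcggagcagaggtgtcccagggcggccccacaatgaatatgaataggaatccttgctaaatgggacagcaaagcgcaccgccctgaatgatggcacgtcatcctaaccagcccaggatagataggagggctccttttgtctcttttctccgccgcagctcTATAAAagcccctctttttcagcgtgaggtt
HES3: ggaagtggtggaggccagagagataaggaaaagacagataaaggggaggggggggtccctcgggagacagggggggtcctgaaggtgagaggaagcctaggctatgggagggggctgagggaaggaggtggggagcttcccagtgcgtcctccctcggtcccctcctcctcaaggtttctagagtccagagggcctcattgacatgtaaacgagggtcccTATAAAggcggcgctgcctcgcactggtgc

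In OLIG3 and HES3 the TATAAA begins 31 and 30 bases before the start. TATAAA or its reverse TTTATA was found in the 250 upstream bases of 9.0% of 22199 RefSeq windows and in 2 of the 22 windows of these genes, those of OLIG3 and HES3. Among all windows, 42.2% of those with TATAAA overlapped a peak against 73.5% of those without. CCAAT or ATTGG was found in 32.7% of all windows and in 10 of the 22. Both motifs were chosen after the promoters had been seen, both strands were searched, and a match in letters is a description only. Only the exact letters were counted, so variants such as the tatataag near the start of SOX3 were left out.

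**Figure D2:**
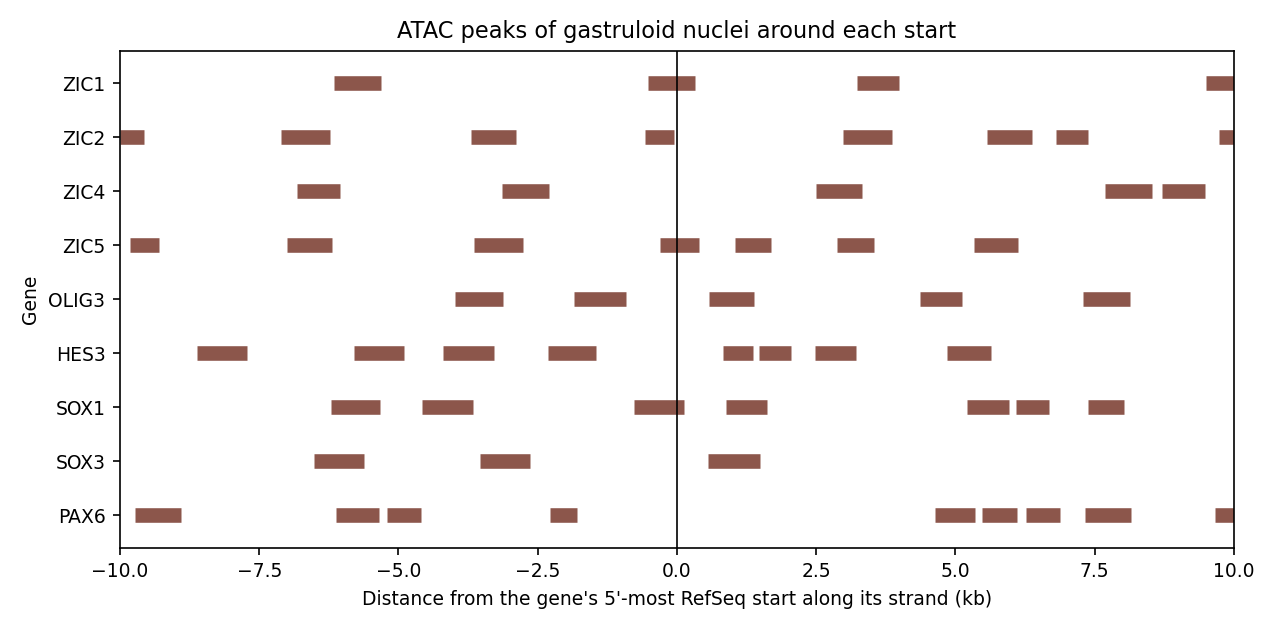
ATAC peaks of the pooled gastruloid nuclei around the 5′-most RefSeq start of each of the 9 genes (x axis, distance from that start in kb along the strand of the gene, 1 row per gene, each bar a peak). A bar lies on or just before the start for ZIC1, ZIC2, ZIC5 and SOX1, while the bars nearest to the starts of OLIG3, HES3 and SOX3 lie 576, 828 and 567 bases away.

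Around the whole gene the order was different. Within 50 kb of either end, ZIC5 had 22.9 peaks per 100 kb, ZIC2 had 21.0, ZIC4 and HES3 had 20.7 each and ZIC1 had 19.6, where the median of 20037 genes was 8.8. Between 97.6% and 99.5% of genes had fewer than each of these 5, whose windows overlap within the ZIC1-ZIC4 and the ZIC2-ZIC5 pair. SOX1 had 14.3, PAX6 13.2 and OLIG3 11.7 peaks per 100 kb, and SOX3 had 5.9, with 26.6% of genes lower.

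The basic helix-loop-helix genes OLIG3 and HES3 had the sharpest pattern in the bulk libraries. OLIG3 was at 15.4 and 16.0 CPM in the hESC libraries and at 0 reads in each of the other 10. HES3 was at 19.1 and 24.0 CPM in hESC, at 0.051, 0.279 and 0 CPM in endoderm without sgRNA and at 0 in the 4 foregut libraries. No hESC library came near any other library for either gene. The mean of OLIG3 in endoderm was at least 302-fold lower than in hESC, counting 3 reads over the group as the floor, and that of HES3 was 196-fold lower (log2 fold change -7.34, SE 0.47). In foregut control OLIG3 was 365-fold and HES3 502-fold below hESC, counting the same floor.

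The SOXB1 genes SOX1 and SOX3 were highest in hESC too, and differed from each other in foregut. SOX1 was at 3.36 and 4.08 CPM in hESC, at 0.305, 0.372 and 0.366 CPM in endoderm and at 0 reads in every foregut library. SOX3 was at 8.88 and 10.2 CPM in hESC, at 0.559, 0.418 and 0.305 CPM in endoderm and at 1.35 and 1.51 CPM in foregut control. Endoderm and hESC did not overlap for either gene, and each foregut control value of SOX3 lay above all 3 endoderm values. SOX1 was 10.7-fold lower in endoderm than in hESC (log2 -3.32, SE 0.39) and SOX3 22.2-fold lower (log2 -4.37, SE 0.34). The mean of SOX3 was then 3.34-fold higher in foregut control than in endoderm (log2 1.73, SE 0.69), and 6.66-fold below hESC. SOX3 was the only one of the 9 whose mean was higher in foregut control than in endoderm. SOX2, the third SOXB1 gene and no member of the group, was at 163 ± 17.9 CPM in hESC, 23.4 ± 7.44 CPM in endoderm and 165 ± 21.9 CPM in foregut control.

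The 4 ZIC genes went apart in endoderm and together in foregut. ZIC1 was at 39.8 and 53.2 CPM in hESC, at 13.5, 7.62 and 8.79 CPM in endoderm, and at 0 and 0.781 CPM in foregut control. ZIC2 was at 66.7 and 89.2 CPM in hESC, at 182, 143 and 123 CPM in endoderm, and at 0.123 and 0.135 CPM in foregut control. These genes differed in opposite directions in endoderm without sgRNA, which did not overlap hESC for either. ZIC1 was 4.66-fold lower there (log2 -2.14, SE 0.24) and ZIC2 1.91-fold higher (log2 1.01, SE 0.20). The difference of ZIC2 lay at the fold limit of 2 in the fit and fell under it when hESC replicate 1 was left out (log2 0.87), when endoderm replicate 1 was left out (log2 0.86) and in a fit of all 12 libraries (log2 0.98). In endoderm with sgRNA ZIC2 was at 82.6, 147 and 134 CPM, which overlapped the hESC values. From endoderm without sgRNA to foregut control ZIC1 was 25.6-fold lower and ZIC2 1156-fold lower.

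ZIC5, the divergent neighbour of ZIC2, was at 26.3 and 38.8 CPM in hESC, at 48.2, 28.7 and 21.8 CPM in endoderm, and at 1.38 and 0.108 CPM in foregut control. ZIC4, the neighbour of ZIC1, was at 0.595 and 1.02 CPM in hESC, at 0.254, 0.557 and 0.244 CPM in endoderm, and at 0 in foregut. The hESC and endoderm values overlapped for ZIC5 and lay close to each other for ZIC4. The mean of ZIC5 in endoderm was 1.01 times that in hESC, and foregut control was 44.3-fold below endoderm. The mean of ZIC4 was 2.29-fold lower in endoderm than in hESC. It was 18.8-fold lower in foregut control than in hESC, counting 0 reads as 3 over the group. For each of the 4 ZIC genes every foregut library, with or without sgRNA, lay below every hESC and every endoderm library.

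PAX6 ran the other way. It had 0 and 0.044 CPM in hESC, a total of 1 read, and 0.254, 1.02 and 1.22 CPM in endoderm, a total of 47 reads. It had no read in foregut control, and 0.597 and 0 CPM in foregut with sgRNA. All 3 endoderm values lay above both hESC values, at a level of about 1 CPM. On pooled reads the ratio of endoderm to hESC was 37.6 (95% interval 6.43 to 1518, counting error only). The mean in foregut control was 19.3-fold below endoderm, counting 0 reads as 3 over the group.

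**Figure D3:**
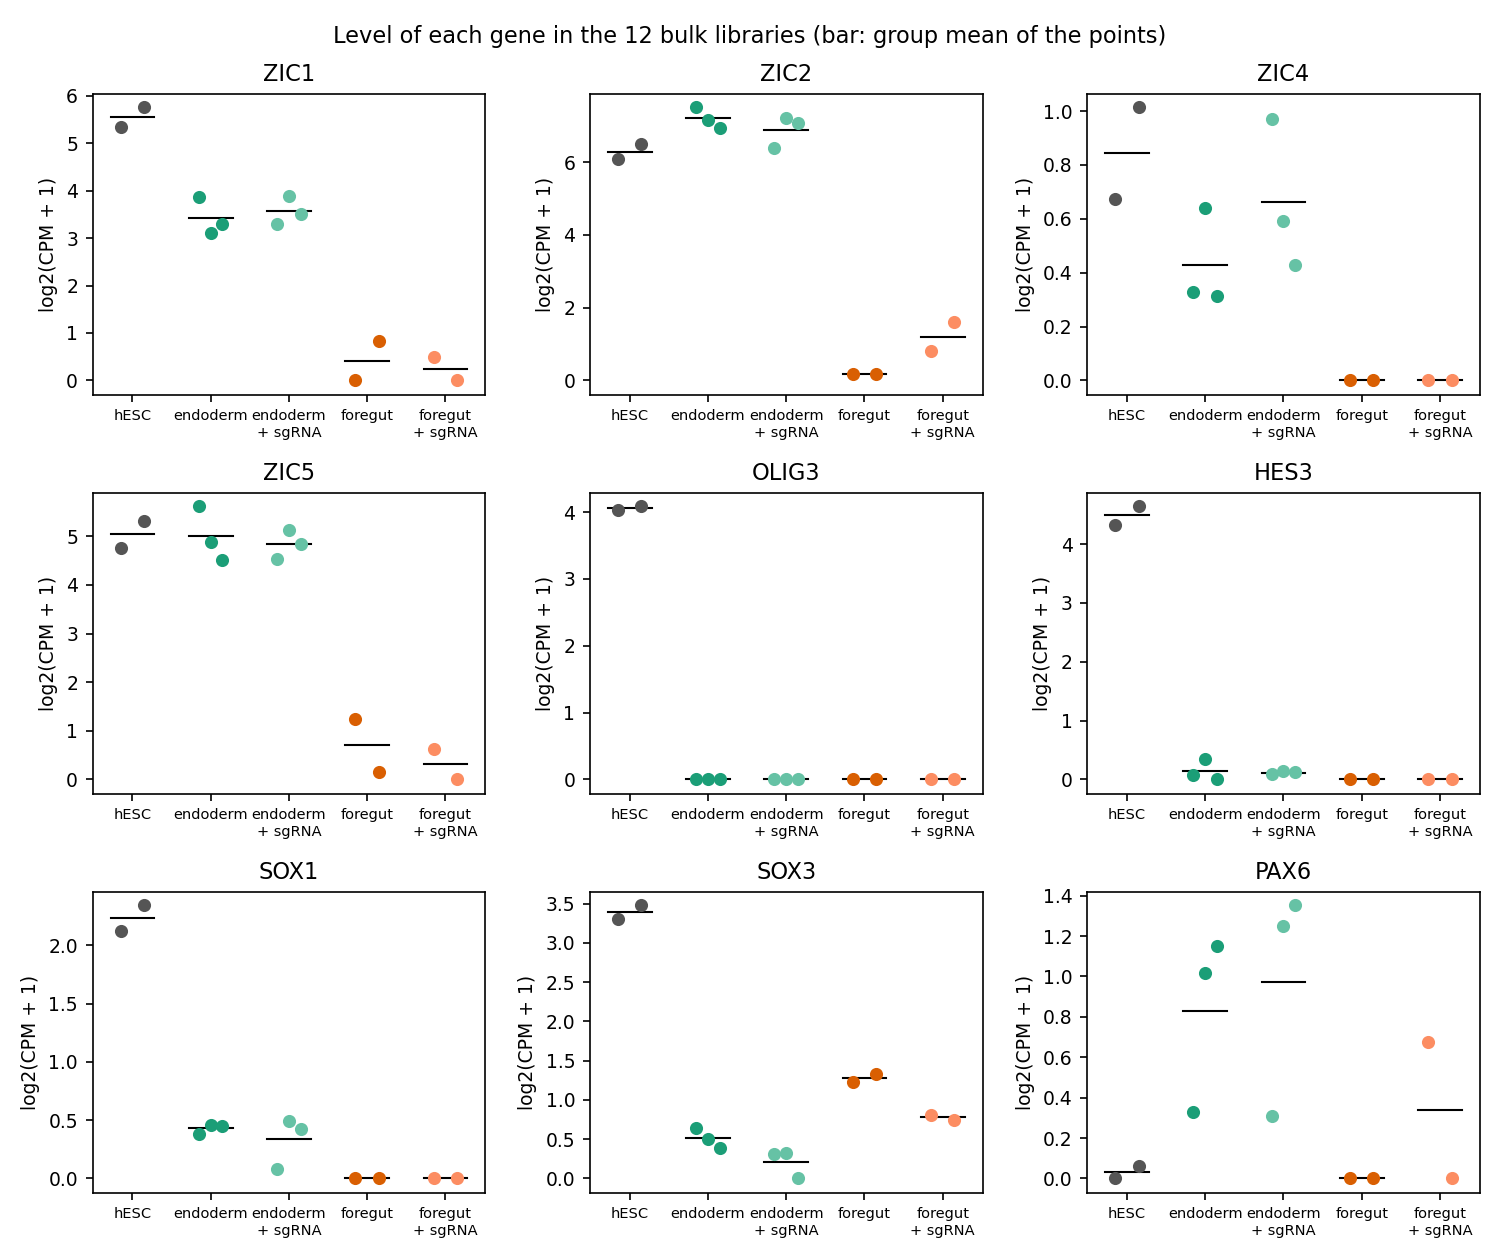
Level of the 9 genes in each of the 12 bulk libraries (y axis, log2(CPM + 1), 1 panel per gene; points are libraries by group and bars the mean of the points). OLIG3 is above 0 in the hESC libraries alone, and PAX6 is highest in the endoderm groups. ZIC2 lies highest in endoderm without sgRNA, at 123 to 182 CPM. In endoderm with sgRNA it lies at 82.6 to 147 CPM, which overlaps hESC.

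Over all genes, 26% of 20818 passed an adjusted p (Benjamini-Hochberg, edgeR quasi-likelihood test) under 0.05 with a fold over 2 between endoderm and hESC, 11.8% lower and 14.2% higher. Of these 9 genes, chosen for this comparison, 5 were lower (ZIC1, OLIG3, HES3, SOX1 and SOX3) and 2 were higher (ZIC2 and PAX6), with a median log2 fold change of -2.14 beside 0.04 over all genes. Between foregut control and endoderm, 29% of 21466 genes passed, 15% lower and 14.1% higher, and 4 of the 8 genes with enough reads were lower (ZIC1, ZIC2, ZIC5 and PAX6). Between foregut control and hESC, 32.7% of 21191 genes passed, 16.6% lower and 16% higher, and 8 of 8 were lower, PAX6 being left out for want of reads. None of these counts is evidence about the 9, since they were chosen on these values. The comparisons share libraries, and a gene near 0 in one group could pass the read filter only through the other.

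Levels of different genes were compared per kb of exon. In hESC the order was HES3 at 30.4 ± 4.89 CPM per kb (SD, n = 2), ZIC2 at 23.7 ± 4.84, ZIC5 at 7.23 ± 1.97, OLIG3 at 7.16 ± 0.19, ZIC1 at 6.82 ± 1.39, SOX3 at 4.56 ± 0.43, SOX1 at 0.816 ± 0.112, ZIC4 at 0.095 ± 0.035 and PAX6 at 0.001 ± 0.002. HES3 and ZIC2 did not differ beyond their spread, nor did ZIC5, OLIG3 and ZIC1 among themselves. In endoderm ZIC2 stood alone at 45.3 ± 9.21 CPM per kb (n = 3), ahead of ZIC5 at 7.32 ± 3.05 and ZIC1 at 1.46 ± 0.46. The other 6 were at or below 0.205 CPM per kb on average there. Lengths count every annotated exon, so a gene with many transcripts, such as PAX6, is understated.

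Other genes of the same families and of neural tissue did not follow the 9 as a block. Of 16 tested paralogs of the SOXB, ZIC, PAX, HES and OLIG families, 5 were lower and 4 higher in endoderm than in hESC, with a median log2 fold change of -0.11. PAX5 (log2 -3.68, SE 0.50), OLIG2 (-2.79, SE 0.45), SOX2 (-2.73, SE 0.23) and SOX21 (-1.29, SE 0.31) fell. Of 30 tested genes of neural progenitors, 9 were lower and 8 higher. GBX2, a factor of the anterior hindbrain, fell by 4.08 (SE 0.26) on the log2 scale and LHX5, a forebrain factor, by 2.78 (SE 0.40). IRX3 rose by 6.47 (SE 0.39) and OTX2, which marks anterior neural tissue and also early endoderm, rose by 2.71 (SE 0.20).

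From endoderm to foregut control 12 of 26 tested neural progenitor genes were lower and 3 higher, with a median log2 fold change of -3.66 beside -0.09 over all genes. OTX2 fell by 4.26 (SE 0.23) and SIX3 by 4.14 (SE 0.41), while SOX11 rose by 3.52 (SE 0.24). Of 15 tested paralogs, 3 were lower and 4 higher: SOX2, SOX21, HES1 and HES4 rose by 1.62 to 4.16 on the log2 scale. Among neuronal genes, 4 of 10 tested were lower and 2 higher in endoderm than in hESC, with a median log2 fold change of 1.11. The microtubule protein genes MAP2 (log2 -3.40, SE 0.34) and DCX (-2.87, SE 0.41) fell, and ISL1, a factor of motor neurons that is also used in endocrine and cardiac progenitors, rose by 8.16 (SE 0.59). From endoderm to foregut control 3 of 11 were higher and 2 lower, and there DCX rose by 4.52 (SE 0.47) and MAP2 by 2.33 (SE 0.44).

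Patterns across the 12 libraries were compared by Pearson correlation of log2(CPM + 1), as a description over libraries that fall into hESC, endoderm and foregut. OLIG3 and HES3 were closest among the 9, at 0.998, and both lay nearest to HRH3, a histamine receptor gene. ZIC2 and ZIC5 correlated at 0.967 and SOX1 with HES3 at 0.974. SOX3 and SOX1 were at 0.853, SOX3 and ZIC2 at -0.06, and PAX6 and SOX3 at -0.622. Among 14221 genes, those closest to ZIC1 were SHISA3, PPAT and DPPA4, those closest to ZIC2 were ZFYVE9, SPRY4 and MLLT10, and those closest to ZIC5 were LRP8, PHLDB2 and ANOS1. GPR50, NKX1-2 and CAMKV lay closest to SOX1, and MMP24, NOP16 and SLC22A23 to SOX3. PAX6 lay closest to HDC, KIRREL3 and DKK1, and ZIC4 to PABPC4, DDX39A and HMGA1P8, at 0.901 to 0.931 and 0.912 to 0.922.

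The sgRNA comparison asked whether repressing LTR5 repeats altered these genes. The rule did not use this contrast, but it did use foregut levels over all 12 libraries, so the foregut values with and without sgRNA were known when the genes were chosen. Reads over the 920 integrants (copies) annotated as LTR5B or LTR5_Hs, a related repeat, were few: 203 to 328 in endoderm without sgRNA and 147 to 230 with it, or 12.4 to 15.2 and 8.82 to 13.9 CPM. In foregut they were 496 and 561 in control and 221 and 237 with sgRNA, or 15.2 and 15.1 against 6.94 and 11.4 CPM. The endoderm groups overlapped and the foregut groups did not. None of the 9 genes lay within 100 kb of an integrant, where 11.2% of 19475 protein-coding genes did. OLIG3 was nearest, at 350.1 kb, then HES3 at 669.6 kb, ZIC4 at 862.8 kb and ZIC1 at 870.2 kb, while ZIC5 and ZIC2 were 4694.0 and 4712.8 kb away. The median distance was 1160.1 kb for these genes and 1019.2 kb for all.

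In endoderm the sgRNA left the 9 genes without a call. Of 20407 genes tested 0.0343% passed with edgeR, and of the 8 members tested 0 passed. None of the 8 reached an unadjusted p under 0.05, where 5.18% of all genes did, and limma voom and DESeq2 called 0 as well. ZIC1 was at 8.82, 13.8 and 10.4 CPM with sgRNA, ZIC2 at 82.6, 147 and 134 CPM, and ZIC5 at 22.03, 34.0 and 27.7 CPM, each group overlapping the values without sgRNA. The log2 fold change was 0.16 for ZIC1 (95% interval -0.39 to 0.72), -0.28 for ZIC2 (-0.74 to 0.17) and -0.21 for ZIC5 (-0.76 to 0.34). All 3 intervals lie within a 2-fold change in either direction.

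The other 5 tested genes had few reads in endoderm, and their intervals were wide. SOX3 was at 0.24, 0.255 and 0 CPM with sgRNA, all below the 0.305 to 0.559 CPM without it, yet its log2 fold change of -1.20 had an interval of -2.96 to 0.56 (adjusted p = 0.992, edgeR). PAX6 was at 0.24, 1.38 and 1.55 CPM with sgRNA, which overlapped the values without it, with a log2 fold change of 0.32 (-1.06 to 1.70). ZIC4, SOX1 and HES3 gave 0.82 (-0.54 to 2.18), -0.36 (-1.97 to 1.26) and -0.42 (-3.19 to 2.35). A change of 2-fold in these 5 was not detectable at this depth. OLIG3 had no read in any endoderm library. None of the tested genes of neural progenitors (27), paralogs (15), neuronal genes (10) or neural border genes (11) passed in endoderm either.

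In foregut 0.165% of 20044 genes passed between the sgRNA and control groups, and 0 of the 5 members with enough reads. None of the 5 had an unadjusted p under 0.05, where 3.49% of all genes did. ZIC2 was at 0.754 and 2.02 CPM with sgRNA, which are 24 and 42 reads, against 0.123 and 0.135 CPM in control, which are 4 and 5 reads. SOX3 was at 0.754 and 0.673 CPM with sgRNA against 1.35 and 1.51 CPM in control. The groups did not overlap for either gene, but the log2 fold changes of 3.34 for ZIC2 (95% interval -2.41 to 9.10) and -0.95 for SOX3 (-5.18 to 3.27) had intervals that include 0. For ZIC1, ZIC5 and PAX6 a library at 0 stood in a group beside a library with 13 to 29 reads. A fit of all 12 libraries together, which borrows the spread of hESC and endoderm, called ZIC2 (log2 3.32, adjusted p = 0.00317, edgeR) and no other member. Cell type markers moved in the same libraries. PDX1 was at 2.42 and 8.51 CPM with sgRNA against 25.5 and 25.9 CPM in control (log2 -2.30, SE 0.49, adjusted p = 0.00218, edgeR). CDX2, a factor of intestine and posterior progenitors, was at 1.44 and 4.13 CPM against 23.1 and 12.9 CPM (log2 -2.77, SE 0.57, adjusted p = 0.000992). PDX1 was the only one of 7 tested foregut markers that passed, and the part of these markers in the ZIC2 values was not tested.

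The difference between the sgRNA effects in foregut and in endoderm was tested over the 10 endoderm and foregut libraries, and 0.194% of 22708 genes passed, 0.0528% higher in foregut. Of the 8 members tested, ZIC4, HES3 and SOX1 had no read in any foregut library. No difference could be estimated for them, so they could not pass and their lack of a call says nothing. Among the others ZIC2 passed, with a log2 difference of 3.60 (SE 0.57, 95% interval 2.38 to 4.81, adjusted p = 0.0277, edgeR). Its call rests on 9 reads in foregut control and 66 in foregut with sgRNA, in the libraries with few low-count genes, and it was lost with limma voom (adjusted p = 0.309), with a stricter read filter (0.0506), with the replicate numbers as a block (0.216) and without any of 5 single libraries. Those were endoderm control replicates 1 and 2, endoderm with sgRNA replicate 1 and both foregut controls (0.0538 to 0.11). PAX6 had a difference of 5.68 that did not pass (adjusted p = 0.573), and ZIC1, ZIC5 and SOX3 had -0.80, -1.02 and 0.28 with intervals across 0.

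**Figure D4:**
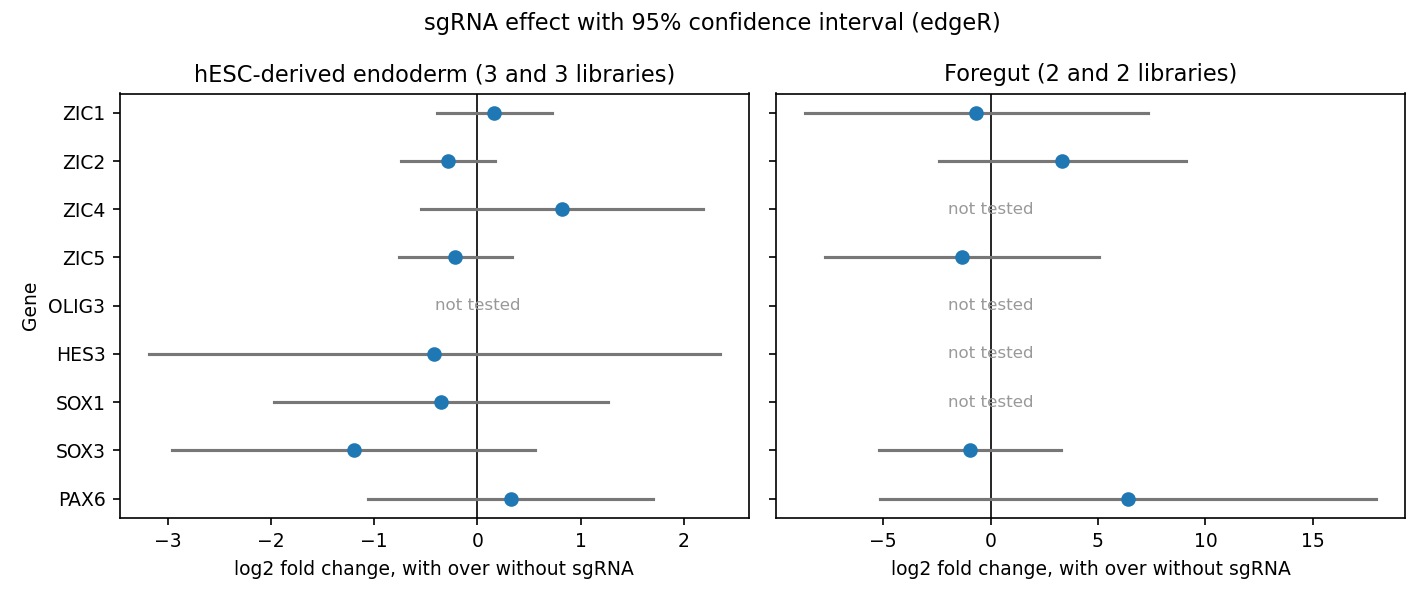
Log2 fold change of each tested gene with against without sgRNA (x axis, points with 95% intervals from edgeR) in endoderm and in foregut. Intervals are narrowest for ZIC1, ZIC2 and ZIC5 in endoderm, at -0.39 to 0.72, -0.74 to 0.17 and -0.76 to 0.34, and all intervals include 0. The panels have different x scales, and genes without enough reads are marked as not tested.

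In the gastruloids 3422 of 3646 nuclei passed filters, with a median of 16302 UMIs (unique molecular identifiers, each standing for 1 captured transcript). There is 1 library, so values between nuclei have no replicate check, and intervals cover counting error only. Nuclei were classed by whether they held a UMI of SOX2 and of PAX3: 373 held SOX2 without PAX3, 1508 PAX3 without SOX2, 739 both and 802 neither. Median depths were 18772, 14994, 19473 and 14983.5 UMIs. These classes are not cell types. Markers of the axial mesoderm summed to 888 UMIs per 1000000 UMIs (UMI CPM) in SOX2 nuclei and 131 in PAX3 nuclei. Those of neuromesodermal progenitors summed to 615 and 126, and those of paraxial mesoderm to 313 and 1506, with every gene of these lists detected. The neuromesodermal list holds SOX2 and the paraxial list PAX3, so part of the differences in these lists was fixed by the classes. SOX2 gave 110 of the 615 UMI CPM in SOX2 nuclei, and PAX3 gave 527 of the 1506 in PAX3 nuclei. Neuronal markers, 6 of 15 listed, summed to 189 and 113 UMI CPM, while neural progenitor genes, 18 of 32 listed, summed to 2074 and 2433. The part of these differences in the values below was not tested.

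OLIG3, HES3, SOX1 and PAX6 have no row among the 17493 genes listed, of which the rarest was seen in 34 nuclei, so no level can be given for them. ZIC2 was the most often seen of the 5 that are listed, with a UMI in 49.9% of kept nuclei, before ZIC1 at 28.6%, ZIC5 at 19.5%, SOX3 at 4.62% and ZIC4 at 2.92%. All 4 ZIC genes had UMIs in nuclei in which no SOX2 UMI was seen. A class without a UMI is one of non-detection: at 5000 UMIs 46.3% of the SOX2 nuclei still held a SOX2 UMI. The share of UMIs that comes from free RNA was not measured.

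ZIC1 was at 16.9 UMI CPM in SOX2 nuclei (95% interval 14.03 to 20.1) and 41.1 in PAX3 nuclei (38.6 to 43.7), a ratio of 2.44 (2.02 to 2.96) towards PAX3. ZIC4 had 2 UMIs in SOX2 nuclei and 56 in PAX3 nuclei, a ratio of 8.56 with a wide interval of 2.26 to 72.4. Both genes of the chromosome 3 pair were therefore higher in the PAX3 nuclei, and that direction held under each of the other ways of classing and filtering the nuclei that were tried. For ZIC4, with 2 UMIs in SOX2 nuclei, the direction alone is read and not the size of the ratio. Thinned to 5000 UMIs, 8.24% of 352 SOX2 nuclei and 18.7% of 1445 PAX3 nuclei held ZIC1, against 22.3% and 33.4% unthinned. ZIC4 was held by 0 of 352, which allows a share of up to 0.852% (exact 95% upper bound 1.04%), and by 1.45% of 1445. Unthinned it was held by 2 of 373 SOX2 nuclei (0.536%) and 3.58% of 1508 PAX3 nuclei.

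ZIC2 was at 44.4 UMI CPM in SOX2 nuclei (39.7 to 49.4) and 61.4 in PAX3 nuclei (58.3 to 64.6), and ZIC5 at 8.98 (6.95 to 11.4) and 17.0 (15.4 to 18.8). The ratios towards PAX3 were 1.38 (1.23 to 1.57) and 1.90 (1.46 to 2.50). For ZIC2 this order did not hold: the ratio of SOX2 to PAX3 nuclei was 0.723 as given, 1.03 when nuclei over 15% mitochondrial UMIs were left out and 1.02 when classes were set after thinning. For ZIC5 it went from 0.527 to 0.99 when classes were set after thinning. Their levels in these classes are read here as not ordered.

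SOX3 had the opposite order, at 4.22 UMI CPM in SOX2 nuclei (2.87 to 5.99) and 1.29 in PAX3 nuclei (0.876 to 1.83), from 31 UMIs in each class. Its highest value was in nuclei with both SOX2 and PAX3, at 9.94 (8.43 to 11.6), and its lowest where neither was seen, at 0.92 (0.459 to 1.65). At 5000 UMIs SOX3 was held by 4.38% of 730 nuclei with both, 1.71% of 352 SOX2 nuclei, 0.9% of 1445 PAX3 nuclei and 0.299% of 670 with neither, or 13.3%, 5.90%, 1.92% and 1.12% unthinned. The PAX3 and neither shares overlap in their intervals (0.48% to 1.53% and 0.036% to 1.07%). The ratio of their UMI levels was 1.40 (0.685 to 3.09), so these classes were not told apart. SOX3 in nuclei with both was 7.71 times its level in PAX3 nuclei (5.22 to 11.7), and 4.99 to 8.12 times under the other ways of classing and filtering. Against SOX2 nuclei the ratio was 2.36 (1.59 to 3.59) and went to 1.06 when classes were set after thinning, so that those classes were not ordered.

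Nuclei with both SOX2 and PAX3 had values as high as, or higher than, PAX3 nuclei for 4 of the 5 genes, ZIC1 being the exception. ZIC1 was at 32.6, ZIC2 at 71.0, ZIC4 at 2.44 and ZIC5 at 19.9 UMI CPM there. ZIC2 and ZIC5 were above PAX3 nuclei by ratios of 1.16 (1.07 to 1.25) and 1.17 (1.01 to 1.36), ZIC4 was within error (1.05, 0.674 to 1.61) and ZIC1 was lower (0.794, 0.712 to 0.885). This class had the greatest depth and the largest share of nuclei marked as doublets, 5.01% against 0.37% to 1.66% in the other classes. Without the doublets the ratios to PAX3 nuclei were 1.15 for ZIC2, 1.19 for ZIC5, 1.13 for ZIC4, 0.797 for ZIC1 and 7.95 for SOX3. That of ZIC4 went down to 0.57 when nuclei over 15% mitochondrial UMIs were left out.

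**Figure D5:**
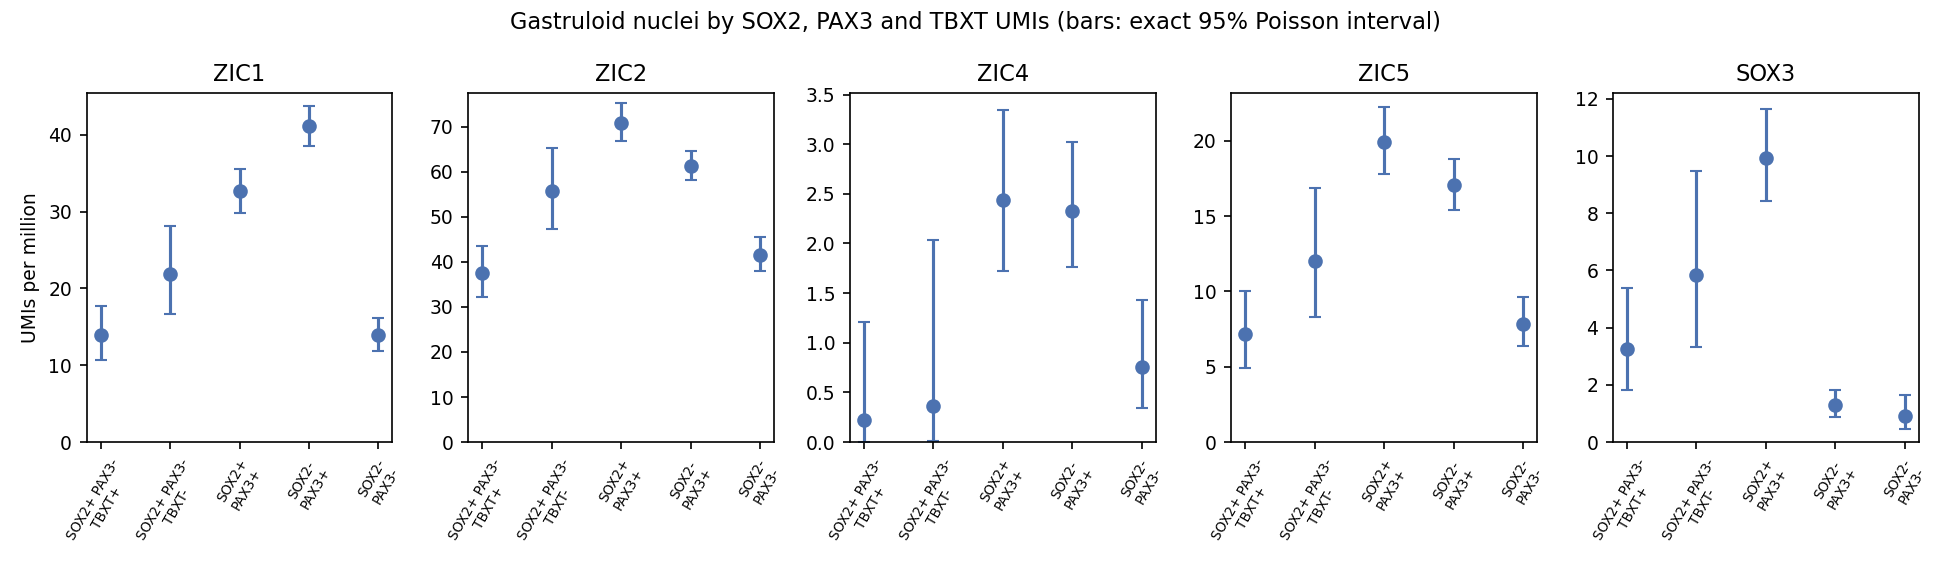
UMI CPM (y axis, linear, 1 panel per gene) of ZIC1, ZIC2, ZIC4, ZIC5 and SOX3 in gastruloid nuclei classed by SOX2 and PAX3, with the SOX2 nuclei split by TBXT; bars are exact 95% Poisson intervals. ZIC1 is highest in PAX3 nuclei at 41.1, and SOX3 is highest at 9.94 in nuclei with both.

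A split that the choice of the genes did not use was by TBXT, which marks axial and posterior progenitors. Of the SOX2 nuclei 204 held a TBXT UMI and 169 did not, and axial markers, TBXT among them, summed to 1351 and 110 UMI CPM. ZIC1 was at 13.9 (10.7 to 17.7) with TBXT and 21.9 (16.7 to 28.2) without, ZIC2 at 37.5 (32.2 to 43.6) and 55.8 (47.3 to 65.4), and ZIC5 at 7.16 (4.93 to 10.1) and 12.0 (8.28 to 16.9). The ratios with to without TBXT were 0.635 (0.439 to 0.919), 0.673 (0.538 to 0.842) and 0.595 (0.356 to 0.995), all below 1. The one of ZIC1 went to 0.996 when classes were set after thinning, and that of ZIC2 to 0.867 when nuclei over 15% mitochondrial UMIs were left out. SOX3 gave 0.558 (0.257 to 1.21), within counting error, and ZIC4 had 1 UMI on each side.

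Among nuclei with both SOX2 and PAX3, 329 held TBXT and 410 did not. SOX3 was higher with TBXT, at 13.5 (11.0 to 16.3) against 6.27 (4.63 to 8.32) UMI CPM, a ratio of 2.15 (1.51 to 3.08) that stayed above 1 under the other settings, at 1.23 to 3.32. At 5000 UMIs it was held by 6.40% and 2.74% of nuclei, or 19.5% and 8.29% unthinned. ZIC1 gave a ratio of 0.721 (0.602 to 0.863) that turned to 1.12 when classes were set after thinning. ZIC2 gave 0.856 (0.759 to 0.965) and turned to 1.03 when nuclei over 15% mitochondrial UMIs were left out. ZIC4 and ZIC5 gave 0.963 (0.482 to 1.92) and 0.83 (0.66 to 1.04). Doublets made up 7.29% of those with TBXT and 3.17% of those without, and the SOX3 ratio without doublets was 2.84. Neuromesodermal markers, SOX2 and TBXT among them, summed to 865 and 366 UMI CPM, and their part was not tested. Whether the SOX3 ratio differed between SOX2 nuclei and nuclei with both was not tested.

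Pairs of genes in the same nucleus were counted in 3197 nuclei thinned to 5000 UMIs. ZIC2 and ZIC5 were found together in 78 nuclei, 1.43 times the product of their shares, and in 1.43 times it at 3000 UMIs as well. ZIC1 and ZIC4 were together in 18 nuclei, 3.33 times the product, and SOX3 and SOX2 in 24, 2.85 times. These values pool classes whose shares differ: within classes SOX3 and SOX2 were at 1.32 times the product in nuclei with both class genes and 1.44 times in SOX2 nuclei, ZIC2 and ZIC5 at 1.19 to 2.30 times, and ZIC1 and ZIC4 at 2.55 and 2.84 times in PAX3 nuclei and nuclei with both. ZIC1 and ZIC2, of different pairs, were together in 114 nuclei, 1.10 times the product. These are counts of sparse UMIs in 1 library and are given as descriptions.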

How the data were processed

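Bulk RNA-seq (12 libraries, poly(A) RNA, stranded TruSeq kit) was mapped by the authors to hg19 with HISAT2 and counted over genes and transposable elements with featureCounts from uniquely mapped reads. The deposited bulk values are raw counts per gene and per integrant. The gastruloid files deposited by the authors hold UMI counts per gene and nucleus and ATAC peaks on hg38, both from Cell Ranger. The hESC, endoderm and foregut groups were taken from the labels.

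CPM were counts per 1000000 reads on genes, and 55665 of 63677 gene IDs were given symbols and positions by GENCODE v44lift37. Genes with at least 3 reads in 1 library were tested with edgeR 4.0.16 (R 4.3.3, TMM, quasi-likelihood test) on the libraries compared, and called at an adjusted p under 0.05 with a fold over 2. The script was tested on simulated data. Alternatives were limma voom (3.58.1), DESeq2 (1.42.0), other filters and scalings, 1 fit of all libraries, the replicate block and leaving out each library. An exact 95% interval was used for shares and UMI levels, and a count of 0 was taken as at most 3. Such intervals cover counting error only.

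Nuclei had at least 1000 UMIs, 200 genes and at most 25% mitochondrial UMIs. Doublets were marked with Scrublet (70 nuclei, 2.05%) and kept. Promoters and starts were RefSeq GRCh38.p14. Beside the 9, the text names at most the 5 largest rises and 5 largest falls among called genes of a list that averaged 1 CPM or more, and the 3 genes closest to each by Pearson correlation of log2(CPM + 1). The 9 genes and the lists were chosen with earlier results of these data known.

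Gene reads per library ranged from 11583063 to 37152434. Same-numbered libraries did not deviate together in every pair (correlations of -0.137 to 0.122), so the numbers were not taken as pairs.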

Additional observations from a re-analysis of the deposited data

Results flagged for a closer look

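ZIC2 is listed because the effect of the sgRNA differed between foregut and endoderm by a test of the difference itself, with a log2 difference of 3.60 (SE 0.57, adjusted p = 0.0277, edgeR). It was higher with sgRNA in both foregut libraries, at 24 and 42 reads against 4 and 5 in the controls, and its endoderm groups overlapped. The adjusted p under the alternatives that lost the call ranged from 0.0506 to 0.309, and the direction was the same under all alternatives run. The 4 foregut libraries had 582 to 786 genes with 1 to 5 reads against 4321 to 5138 in the other libraries, and PDX1 and CDX2 were lower with sgRNA in the same foregut libraries (log2 -2.30 and -2.77). The part of either in the difference was not tested. Foregut levels were among the values by which ZIC2 was chosen. Groups of fewer than 4 libraries were not tested for outlying values.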

How the results depend on the processing

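Outside the fits that leave out a library, 271 of the fold changes of these genes kept their direction and side of the threshold, 4 lost the call, 3 gained it and 1 reversed, that of HES3 for the sgRNA in endoderm (0.295 with limma voom). The number of the 9 genes called between foregut control and endoderm was 4, and 7 with limma voom and in a fit of all 12 libraries (3 to 7 when a library was left out). For the sgRNA in foregut it was 0, and 1 in the fit of all 12 libraries. For the difference of the sgRNA effects it was 1, and 0 with limma voom, with the stricter read filter and with the replicate block (0 to 1 when a library was left out). The number between endoderm and hESC was 5 to 7, and between foregut control and hESC 7 to 8, when a library was left out.

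Leaving out a library reversed some log2 fold changes that were not called. Between endoderm and hESC the range for ZIC5 was -0.27 to 0.32. For the sgRNA in endoderm it was -0.007 to 0.44 for ZIC1, -0.42 to 0.16 for ZIC5, -0.79 to 0.097 for SOX1 and -0.11 to 0.78 for PAX6. For the sgRNA in foregut it was -6.54 to 5.70 for ZIC1 and -7.60 to 1.55 for ZIC5. For the difference of sgRNA effects it was -6.27 to 5.24 for ZIC1, -6.82 to 1.86 for ZIC5 and -0.23 to 0.71 for SOX3. In nuclei the ratio of SOX2 to PAX3 nuclei reversed for ZIC2 (1.03 and 1.02), and the joint detection of ZIC1 and ZIC5 fell from 1.45 to 0.858 times the product of shares at 3000 UMIs. The cause was not tested.

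With the replicate block, the number of all genes called for the sgRNA in foregut went from 33 to 19, and for the difference of effects from 44 to 0. The replicate numbers crossed between groups, chosen after seeing the data, called 74 in foregut and 0 of the 9 genes. The sgRNA count over all genes in endoderm was 7, and 1 with limma voom, with the stricter filter and with all 12 libraries, 47 with DESeq2 and 186 with no filter (1 to 7 when a library was left out). In foregut it was 11 with limma voom, 1 with the stricter filter and 209 with all 12 libraries, 74 without foregut sgRNA replicate 2 and 527 without foregut sgRNA replicate 1, which gave 805 for the difference of effects. That count was 236 with DESeq2, 139 with no filter and 89 with all 12 libraries.

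With 9 and 66 reads of ZIC2 and under 50 of ZIC1, ZIC5 and PAX6 per foregut group, few reads limit each foregut value although these libraries were not shallow. Few reads limit SOX3, PAX6, ZIC4, SOX1 and HES3 in endoderm.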
